A study of Mus musculus with 27 samples.

Results

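The R-spondin axis was followed through 9 mouse genes: the ligands Rspo1, Rspo2, Rspo3 and Rspo4, the receptors Lgr4, Lgr5 and Lgr6, and the membrane ubiquitin ligases Znrf3 and Rnf43. The genes were taken by symbol, and all 9 were found among the 32285 genes of the single cell matrices and the 51906 genes of the RNA-seq table. R-spondins are secreted proteins that bind LGR receptors together with Znrf3 or Rnf43. The ligases remove Frizzled and LRP Wnt receptors from the cell surface, and R-spondin binding takes the ligases away, so that cells respond more strongly to Wnt. In the hair follicle, the dermal papilla (DP), a mesenchymal cluster at the follicle base, exchanges signals with the epithelial matrix around it. Wnt signals are among them. Lgr5 marks cells of the lower outer root sheath (ORS).

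The data came from 4 single cell matrices and 8 RNA-seq libraries. Back skin of 2 wild-type mice at postnatal day 32, in full anagen (the growth phase of the hair cycle), gave 1 matrix per mouse. Hair follicle stem cells (HFSCs) of 2 wild-type mice were grown in 3D cultures under 7 conditions. They were marked with hashtag antibodies and pooled into 1 matrix per mouse. Per the paper, these HFSCs were taken from the same anagen mice as the skin cells. The RNA-seq libraries came from HFSC cultures of wild-type and Rxra cKO mice at postnatal day 55, with 2 libraries for each genotype and medium. The media were FBS (serum) and atRA+PKCi, serum-free B-27 medium with all-trans retinoic acid and a protein kinase C inhibitor.

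The cKO mice carried Sox9-CreER;Rxra-fl/fl;Rosa26-YFP, so that Rxra, the retinoid X receptor that pairs with retinoic acid receptors, was deleted only where Sox9-CreER was active. Before the test conditions, the HFSCs were derived over growth-arrested feeder layers and passaged. Apart from FBS and B-27, all hashtagged conditions also contained atRA+PKCi, and "Rspo" stands for recombinant R-spondin added to the medium. The RNA-seq titles number the libraries 1 and 2 in each group, and equal numbers of a genotype were taken as 1 mouse in both media. No source says that libraries of 1 group came from separate cultures beyond the mouse. On that reading, p-values measure the spread between mice and their cultures.

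RNA-seq libraries held between 25150162 and 35879630 estimated reads, and a level of 1 CPM (counts scaled to library size with TMM factors) stood for 25.9 to 38.2 reads. Krt5 and Krt14, keratins of basal epithelium, lay at 5733 CPM or above in every library, while Cd34, the marker used to sort HFSCs, lay between 0.386 and 2.91 CPM. Rxra itself was read at 95.6 to 97.0 CPM in cKO FBS and at 122 to 149 CPM in the other libraries, and since these reads cover the whole gene, including exons outside the floxed part, they check nothing about the label. In skin, 13625 and 13383 cells were analysed from 16521 and 16068 barcodes, of which 62 barcodes occurred in both matrices. They fell into 38 clusters, 25 of which could be named as 13 classes from marker genes. The sort described for the skin had depleted fibroblasts, endothelial, immune and melanocyte cells, yet all of these classes were found. Several fibroblast clusters came mostly from 1 mouse, such as cluster 9 with 1566 cells of mouse 1 and 28 of mouse 2, and cluster 20 with 124 and 2039 cells.

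The receptor genes Lgr4 and Lgr6 rose together in wild-type cells in atRA+PKCi, so the sequence around their start sites is given first. Both are RefSeq sequences of GRCm38.p6, from 250 bases before to 50 bases after the start, and capitals mark a match to a hexamer bound by retinoid receptors. The Lgr4 stretch is chr2:109917397-109917696 on the + strand, at the start of a gene annotated at chr2:109917647-110014257. The Lgr6 stretch is chr1:135105227-135105526 on the - strand, at the start of a gene annotated at chr1:134983301-135105276.
Lgr4: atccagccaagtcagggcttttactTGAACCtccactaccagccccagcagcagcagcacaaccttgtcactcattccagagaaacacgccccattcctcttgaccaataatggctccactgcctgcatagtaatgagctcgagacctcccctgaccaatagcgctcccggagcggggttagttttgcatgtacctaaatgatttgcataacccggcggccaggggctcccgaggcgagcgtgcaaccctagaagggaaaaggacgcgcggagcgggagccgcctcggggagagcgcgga
Lgr6: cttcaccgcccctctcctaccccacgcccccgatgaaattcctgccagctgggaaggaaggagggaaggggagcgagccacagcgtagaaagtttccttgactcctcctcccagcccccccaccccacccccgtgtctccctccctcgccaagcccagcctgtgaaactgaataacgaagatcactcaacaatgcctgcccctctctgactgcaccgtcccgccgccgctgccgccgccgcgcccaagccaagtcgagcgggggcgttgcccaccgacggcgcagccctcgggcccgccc

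The Lgr4 stretch held 58.3% G and C, and the Lgr6 stretch 67.7%. In both strands, 4 retinoid receptor hexamers were searched, namely AGGTCA, the variant AGTTCA, the variant GGGTCA and the variant GGTTCA. The 2 TCF/LEF cores searched were CTTTGA and the variant CTTTGT. Lgr4 had 1 match, GGTTCA on the - strand at 225 bases before the start, and Lgr6 had 0. Of 32851 mouse promoters of the same length, 10.4% held GGTTCA, 43.7% held any of the 4 hexamers and 31.2% any of the 2 TCF/LEF cores. Among the entries for Rspo1, Rspo4 and Rnf43, only a second start of Rnf43 had matches, AGTTCA at 20 and 13 bases before the start. Such a match is a description of letters and not a binding site.

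In anagen skin, all 4 R-spondin genes had their highest level in the DP-like class, far above every other class. This class was 1 cluster of 444 and 484 cells, and 6 of 9 DP markers (Corin, Alpl, Alx4, Hhip, Enpp2 and Ndnf) were highest in it. The members of the axis and the other Wnt genes listed here were kept out of the clustering, but the classes were still made from these cells, so levels by class are a description with no test. Levels are CPM of the UMIs (unique molecules) summed over a class in 1 mouse, with exact Poisson 95% intervals that cover counting error only.

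Rspo3, an R-spondin known from vascular and stromal niches, reached 2052 CPM in DP-like cells of mouse 1 (interval 1990 to 2117) and 1588 CPM in mouse 2 (1545 to 1631). Rspo2 lay at 861 and 917 CPM there. Rspo1 lay at 643 and 451 CPM, and Rspo4, known for its role in nail growth, at 501 and 451 CPM. The next class for Rspo1 was dermal fibroblast-like, with 13.9 CPM in both mice. For Rspo2, Rspo3 and Rspo4 the next class was skeletal muscle-like, where the mice disagreed: 46.0 and 2.29 CPM for Rspo2, 5.41 and 36.7 for Rspo3, and 0 and 16.1 for Rspo4. For all 4 genes the 2 mice's DP-like levels lay above both mice's levels in any other class.

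**Figure D1:**
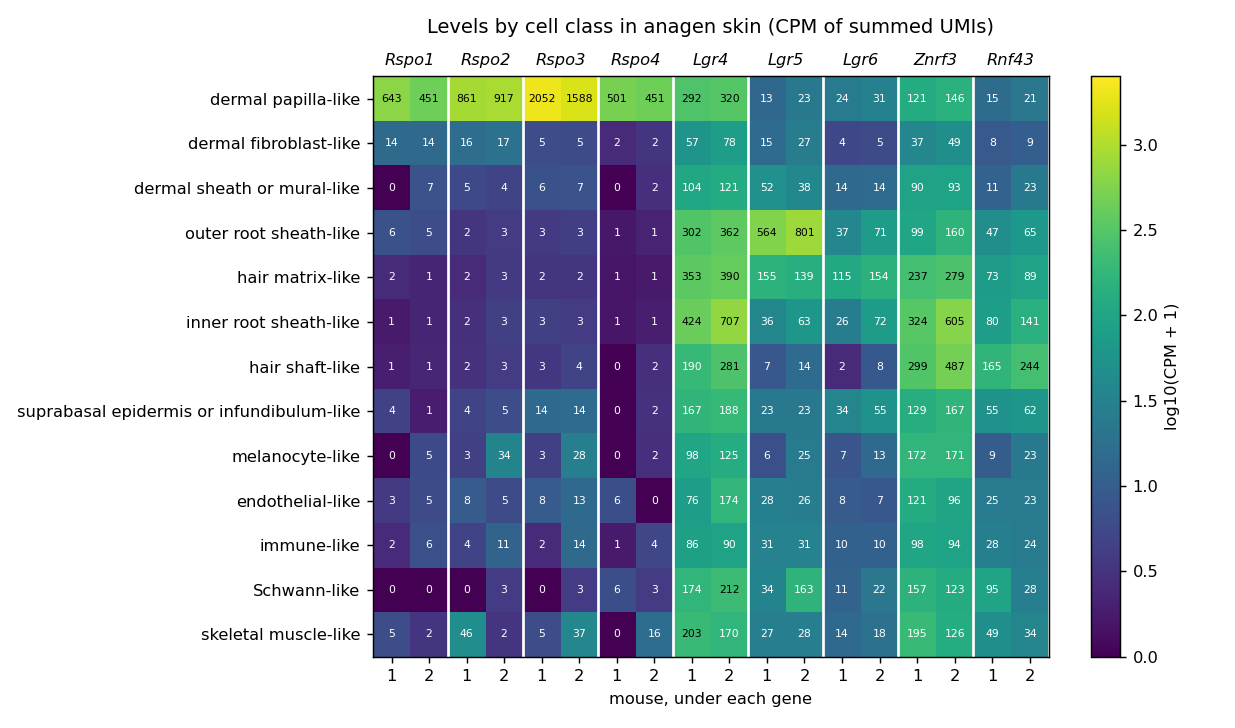
Levels of the 9 genes (columns, each with mouse 1 and mouse 2) in 13 cell classes of anagen skin (rows), as CPM printed in each cell and coloured by log10(CPM + 1). The 4 R-spondins are bright in the dermal papilla-like row, at 451 to 2052 CPM, while Lgr5 is brightest in the outer root sheath-like row and Znrf3 and Rnf43 in inner root sheath-like and hair shaft-like rows.

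DP-like cells were few, but they held most R-spondin UMIs of the skin samples. They held 86.1% of Rspo3 UMIs in mouse 1 and 81.3% in mouse 2, and 86.3% and 77.1% of Rspo4 UMIs. For Rspo1 the shares were 57.9% and 54.4%, and for Rspo2 63.2% and 66.3%. Most of the remainder of these latter genes lay in the far more numerous dermal fibroblast-like cells, with 32.9% and 32.8% of Rspo1 and 30.0% and 24.4% of Rspo2. Shares of this kind depend on how many cells of each class passed the sort.

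Single DP-like cells mostly held several R-spondin transcripts. To compare cells at equal depth, each was thinned to 3000 UMIs, which kept 373 of 444 and 464 of 484 DP-like cells (median depth of the cluster 5179 UMIs). A Rspo3 UMI was then found in 83.6% of DP-like cells of mouse 1 and in 73.7% of mouse 2 (85.1% and 79.5% without thinning). Rspo1 was found in 77.2% and 62.3% of them (82.4% and 76.2% without thinning), Rspo2 in 68.6% and 69.4% (75.5% and 75.8%) and Rspo4 in 62.5% and 59.7% (69.1% and 70.0%). In inner root sheath (IRS)-like cells, an epithelial class that should lack these genes and whose clusters had median depths of 11394 and 7641 UMIs, the thinned shares lay between 0.162% and 0.815%. All 4 genes were seen in 40.2% of the thinned DP-like cells of mouse 1 (Wilson 95% interval 35.4 to 45.3) and 32.5% of mouse 2 (28.4 to 36.9). None was seen in 5.63% and 10.1% of them.

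**Figure D2:**
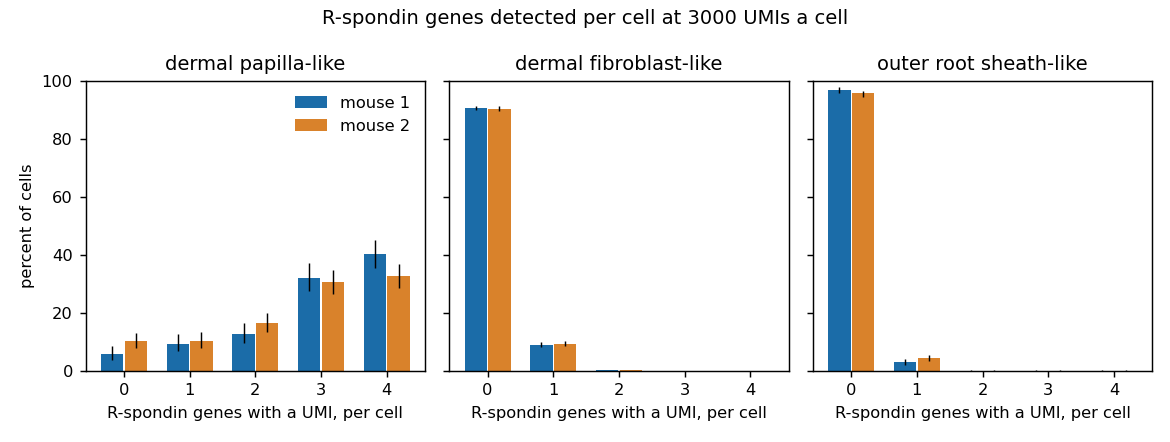
Percent of cells (vertical axis) by the number of R-spondin genes with a UMI in the cell (horizontal axis), after thinning to 3000 UMIs, for 3 classes and 2 mice, with Wilson 95% intervals. Of dermal papilla-like cells, 40.2% and 32.5% held all 4 genes, whereas 90.7% and 90.4% of dermal fibroblast-like cells held 0.

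Within the fibroblast-like classes, the low levels of Rspo1 and Rspo2 were not spread evenly. The clusters named here were picked after their values were seen. Rspo1 lay at 39.3 and 27.5 CPM in cluster 0 (led by Hc, Cdkn1c and Kera) and at 31.2 and 29.1 CPM in cluster 17 (Cdh4, Ccl19). Rspo2 lay at 63.9 and 35.2 CPM in cluster 20 (Cxcl13, Uts2) and at 30.5 and 29.1 CPM in cluster 9 (Adamts16, Pi16), and each of these came mostly from 1 mouse. Rspo3 lay at 40.9 and 59.9 CPM in the unnamed cluster 18 (Car3, Fabp4, Fgf10), the highest level outside the DP-like cluster. That cluster also had the second highest level of Rspo4, with 6.72 and 23.8 CPM.

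The 3 receptors had different leading classes. Lgr5 was highest in ORS-like cells, with 564 CPM in mouse 1 and 801 in mouse 2, above hair matrix-like cells with 155 and 139 CPM. The other classes lay at 163 CPM or below in either mouse, and DP-like cells at 13.1 and 22.9. Lgr4, the most widely found receptor of the family, lay at 424 and 707 CPM in IRS-like cells. It followed at 353 and 390 CPM in hair matrix-like cells, 302 and 362 in ORS-like cells and 292 and 320 in DP-like cells. From the matrix down to the fibroblasts, the Poisson intervals of each class and the next overlapped across the 2 mice. Dermal fibroblast-like cells had the lowest Lgr4 level, with 56.9 and 78.1 CPM. Lgr6, known from cells above the bulge and from the epidermis, was highest among named classes in hair matrix-like cells, with 115 and 154 CPM, apart from ORS-like cells with 36.6 and 71.4 CPM. By cluster it was highest in the unnamed cluster 28 (mean 170 CPM). The hair matrix-like class was 1 cluster, where only 4 of 9 matrix markers (Dlx3, Mki67, Top2a and Hmgb2) were highest among named classes. The unnamed clusters 6 and 3 had higher mean standardized levels of the matrix markers (1.629 and 1.309 against 1.139).

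Cells of the ORS-like class differed strongly among themselves. Cluster 34 (led by Kcnb2 and Grm7) had Lgr5 at 1555 and 1654 CPM and Lgr4 at 927 and 758 CPM. Cluster 29 (Krt15, Fgf5) had Lgr5 at 734 and 805 CPM and Lgr6 at 91.5 and 149 CPM. Cluster 11 (Edn2, Scrg1) kept Lgr5 at 491 and 566 CPM, but its Lgr4 lay at 119 and 147 CPM. Cluster 15 (Krt6a, Pthlh) had the reverse, Lgr4 at 414 and 554 CPM with Lgr5 at 86.4 and 131 CPM. Its place in the ORS-like class was narrow, with mean standardized marker levels of 1.423 for ORS and 1.316 for companion layer. The companion layer is another follicle type in the marker lists, and Krt6a is one of its markers. The unnamed cluster 21 (Krt24, Krt15, Aqp3) had both, Lgr4 at 636 and 902 CPM and Lgr5 at 554 and 354 CPM.

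At 3000 UMIs a cell, 55.6% and 53.3% of the cells of cluster 34 held UMIs of exactly 2 of the 3 LGR genes, and 12.2% and 14.3% held all 3. In cluster 11 the shares with 2 were 19.1% and 26.3%. Cluster 34 also had a median of 7.58% and 6.43% mitochondrial UMIs, against 3.90% and 3.69% in cluster 11 and 4.59% and 3.90% in cluster 29. Malat1, a nuclear RNA, gave 4.59% and 3.82% of UMIs in cluster 34 and 2.65% and 2.83% in cluster 11. The part of cell quality in these receptor levels was not tested.

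Among the named classes, the ligases Znrf3 and Rnf43 had their highest levels in epithelial classes of the follicle. Unnamed clusters held 38.3% and 31.4% of all Znrf3 UMIs in the 2 mice, and 49.0% and 38.7% of all Rnf43 UMIs. Znrf3 lay at 324 and 605 CPM in IRS-like cells and 299 and 487 CPM in hair shaft-like cells, which overlapped. Rnf43 was highest in hair shaft-like cells, with 165 and 244 CPM, and IRS-like cells followed at 80.3 and 141 CPM. Both were lowest in dermal fibroblast-like cells, Znrf3 with 36.8 and 49.1 CPM and Rnf43 with 7.91 and 9.43 CPM. DP-like cells, the main source of the ligands, had Znrf3 at 121 and 146 CPM and Rnf43 at 15.2 and 21.1 CPM.

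IRS-like cells were 2 clusters. Cluster 26 (Prr9, Cdh6, Edar) had Znrf3 at 979 and 1092 CPM, Rnf43 at 229 and 268 CPM and Lgr4 at 1314 and 1221 CPM. Cluster 1 (Krt71, Krt25) had Znrf3 at 236 and 275 CPM and Lgr4 at 305 and 358 CPM. Cluster 26 had a median of 8.05% and 7.26% mitochondrial UMIs, and cluster 1 had 4.37% and 4.01%. As an alternative, cells of 5% or more mitochondrial UMIs, or of fewer than 1000 genes, were left out. The class with the highest level then changed for Lgr4 and Lgr6 (to upper hair follicle-like cells) and Znrf3 (to hair matrix-like cells). It stayed for the 4 R-spondins, Lgr5 and Rnf43. The upper hair follicle-like class, 1 cluster of 93 cells, was named only under this filter. In the main clustering, the unnamed cluster 21 (Krt24, Krt15) had mean levels of 769 CPM for Lgr4 and 128 CPM for Lgr6. Znrf3 was also highest in hair matrix-like cells at a clustering resolution of 1.2 (391 CPM) and with predicted doublets kept (400.3 CPM), and Rnf43 was at resolution 1.2 (151.5 CPM).

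**Figure D3:**
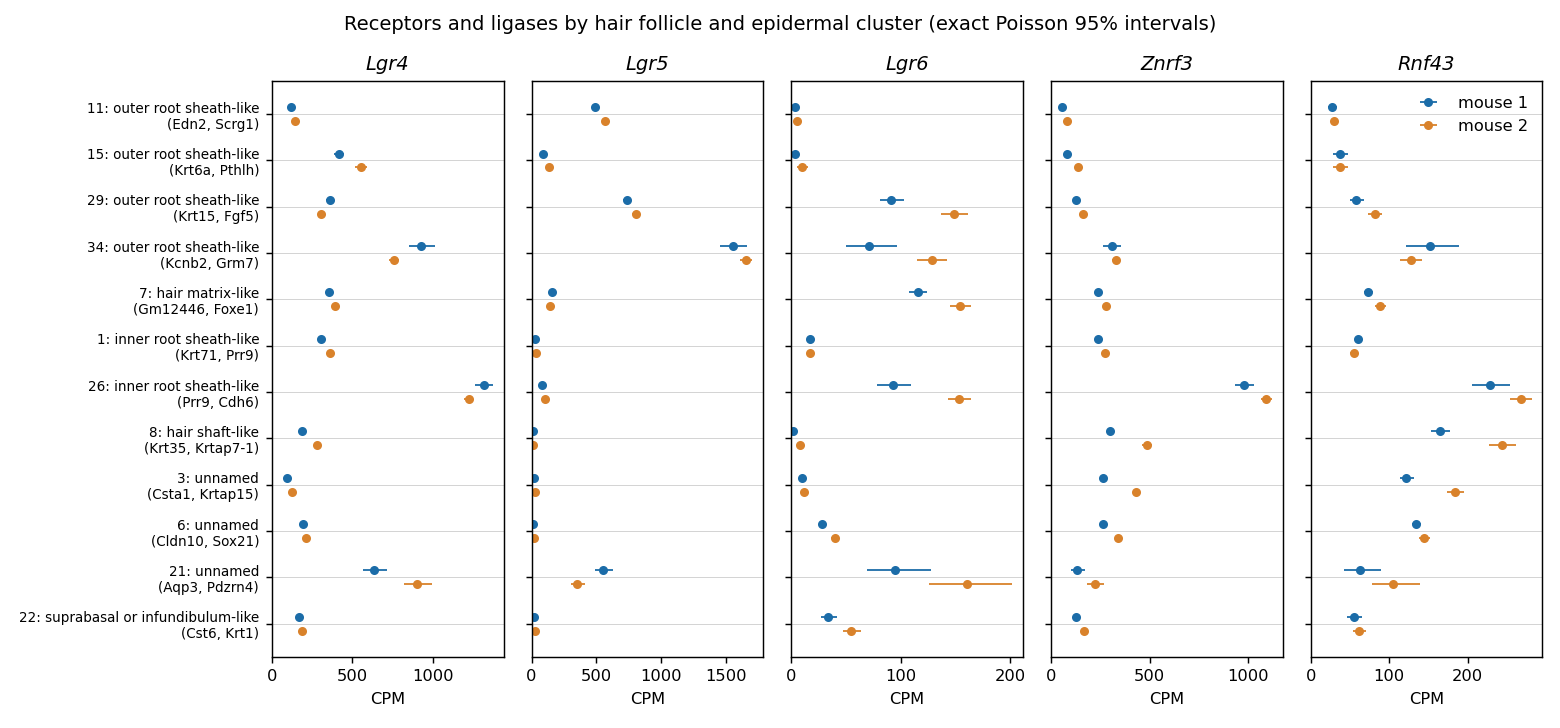
CPM (horizontal axes, each from 0) of Lgr4, Lgr5, Lgr6, Znrf3 and Rnf43 in 12 epithelial clusters with their 2 leading genes (rows), for mouse 1 and mouse 2, with exact Poisson 95% intervals. Lgr5 peaks in cluster 34 at 1555 and 1654 CPM, and Lgr4 and Znrf3 peak in cluster 26.

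Wnt genes outside the axis were taken from lists. Of 14 Wnt target genes at 5 CPM or more in some class, 6 were highest in DP-like cells, among them the feedback inhibitor Axin2 (105 CPM, mean of 2 mice) and the secreted Wnt inhibitors Notum (47.4 CPM) and Wif1 (3364 CPM). Lef1, a transcription factor of the Wnt pathway, was highest in hair shaft-like cells at 1405 CPM, with DP-like cells next at 1055 CPM. ORS-like cells, where Lgr5 peaked, had Axin2 at 4.74 CPM and Lef1 at 47.8 CPM, and 0 of the 14 targets was highest there. Of 11 Wnt receptor genes, 3 were highest in ORS-like cells: Fzd1 (122 CPM), Fzd2 (84.5 CPM) and the coreceptor Lrp6 (256 CPM). The 10 heparan sulfate proteoglycan genes encode surface proteins that can bind R-spondins. Of these, Gpc6 (1951 CPM), Gpc5 (21.6 CPM) and Gpc2 (6.44 CPM) were highest in DP-like cells, and Sdc1 (545 CPM) and Gpc4 (228 CPM) in ORS-like cells. Some of these leads were narrow, since Gpc2 lay at 5.70 CPM in ORS-like cells and Fzd1 at 108 CPM in DP-like cells.

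Across the 13 classes, the gene most like Rspo2 among 11556 compared was Hhip, a hedgehog-binding protein (Pearson r = 0.982 of log levels). For Rspo3 it was Edn3 (r = 0.975), for Rspo4 Grid1 (r = 0.976) and for Rspo1 Apela (r = 0.957). Rspo2 and Rspo3 were among each other's 5 most alike genes (r = 0.960). For Lgr5 the list held Fgf5 (r = 0.865) and Slc1a3 (r = 0.856), which are themselves ORS markers. These points share cells, libraries and depth, and no p is given.

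In HFSC cultures, wild-type cells had far more Lgr4 and Lgr6 in atRA+PKCi than in FBS. Lgr4 counted 808 and 639 reads in FBS and 5968 and 5617 in atRA+PKCi, which is 27.1 ± 3.39 and 185 ± 9.48 CPM (SD, n = 2). Lgr6 counted 158 and 136 reads in FBS and 1651 and 1496 in atRA+PKCi (5.51 ± 0.363 and 50.2 ± 3.92 CPM). For neither gene did the groups overlap. With edgeR's quasi-likelihood test and Benjamini-Hochberg adjustment over 15965 genes, Lgr4 rose by a log2 fold change of 2.77 (SE 0.0942, adjusted p = 6.01e-08) and Lgr6 by 3.19 (SE 0.132, adjusted p = 1.87e-07). On the authors' normalized table the Lgr6 rise was 2.16 (limma adjusted p = 0.000122).

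Znrf3 rose more modestly, from 408 and 298 to 674 and 733 reads (log2 fold change 0.76, SE 0.125, adjusted p = 0.000884). Rnf43 read 208 and 145 in FBS and 176 and 184 in atRA+PKCi, a difference below its spread (log2 fold change -0.20, SE 0.171, adjusted p = 0.351). Rspo1 was the only ligand with enough reads to test, at 21 and 24 reads in FBS and 0 and 0 in atRA+PKCi. That is at least 17.7-fold lower, with 3 counts over the group as the floor (adjusted p = 0.000224). Rspo2, Rspo3 and Rspo4 had 4 reads or fewer and Lgr5 had 5 or fewer in every library, so 4 of 9 members were not tested. Of the 5 tested, 3 were higher and 1 was lower, where 53.9% of all genes were called at an adjusted p under 0.05.

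**Figure D4:**
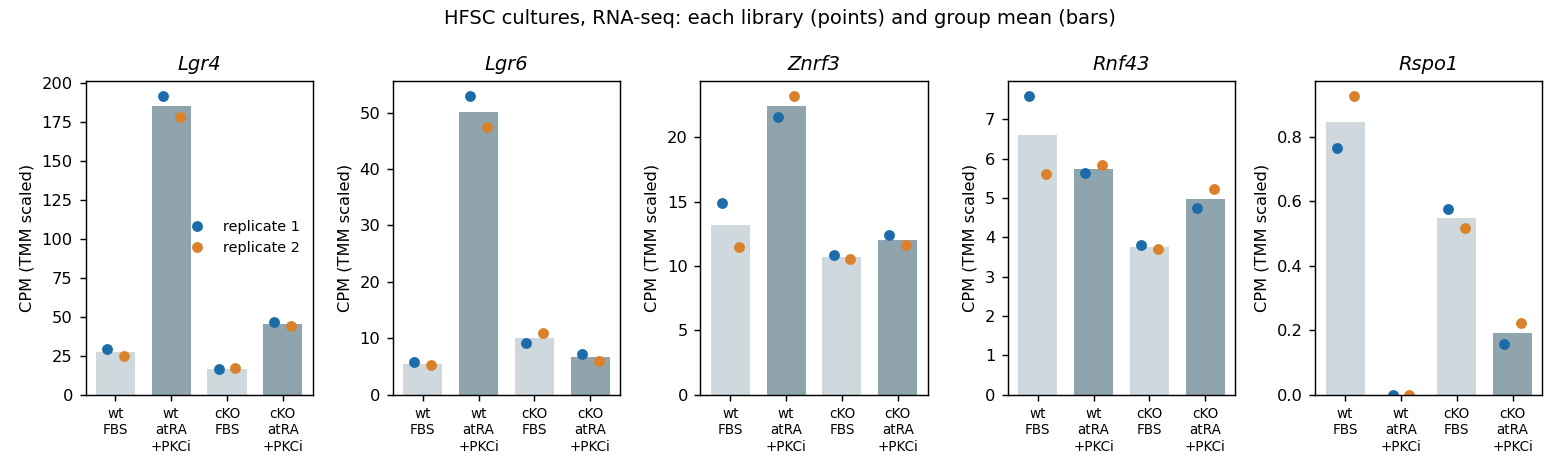
CPM (vertical axes, each from 0) of 5 genes in the 8 RNA-seq libraries (points) and the mean of each group of 2 (bars), by genotype and medium. Lgr4 and Lgr6 stand highest in wild-type atRA+PKCi, at 185 and 50.2 CPM, and Rspo1 is at 0 there.

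In labelled Rxra cKO cells the medium moved these genes less or otherwise. Lgr4 counted 453 and 526 reads in FBS and 1770 and 1183 in atRA+PKCi, a rise by a log2 fold change of 1.44 (SE 0.0954, edgeR adjusted p = 6.95e-06). Lgr6 counted 257 and 340 reads in FBS and 274 and 161 in atRA+PKCi, and fell by 0.61 on the log2 scale after scaling for depth (SE 0.131, adjusted p = 0.00542). Rspo1 had 16 and 16 reads in FBS and 6 and 6 in atRA+PKCi (log2 fold change -1.53, adjusted p = 0.0374). This call was lost with the mouse as a replicate block (adjusted p = 0.0869) and in DESeq2 (0.223), and without any 1 of the cKO or wild-type FBS libraries (0.0632 to 0.224). Znrf3 (log2 fold change 0.18) and Rnf43 (0.41) did not pass. Of 5 tested, 1 was higher and 2 were lower, where 43.0% of all genes were called.

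Fibroblast markers also differed between the groups, and not all in the same way. The 9 markers summed to 8.27 to 12.4 CPM in wild-type FBS, 3.25 to 5.98 in wild-type atRA+PKCi, 14.4 to 18.9 in cKO FBS and 21.8 in both cKO atRA+PKCi libraries. Of these markers, 1 to 4 were at 0 in a library. Pdgfra, a fibroblast receptor gene, had group means of 5.17, 0.685, 4.64 and 1.46 CPM in the same order, and Rspo1 had 0.847, 0, 0.547 and 0.190 CPM. Vim, a mesenchymal filament gene that made up most of the sum in cKO, had 0.524, 1.75, 9.27 and 16.8 CPM. The part of other cells in the Rspo1 values was not tested.

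Compared within a medium, cKO cells had less of both receptors in atRA+PKCi. Lgr4 lay at 45.2 ± 1.62 CPM in cKO against 185 ± 9.48 in wild-type (SD, n = 2; log2 fold change -2.03, SE 0.0901, edgeR adjusted p = 7.14e-07). Lgr6 lay at 6.59 ± 0.834 against 50.2 ± 3.92 CPM (log2 fold change -2.92, SE 0.128, adjusted p = 6.56e-07). Znrf3 lay at 12.1 ± 0.552 against 22.4 ± 1.13 CPM (log2 fold change -0.89, SE 0.124, adjusted p = 0.000495). Rspo1 was at least 3.86-fold higher, with 12 reads over the 2 cKO libraries against 0 (adjusted p = 0.00545), and Rnf43 did not pass (log2 fold change -0.21, adjusted p = 0.367). Thus 1 member was higher and 3 were lower of 5, where 43.2% of all genes were called.

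In FBS the genotypes differed by less. Lgr4 was lower in cKO (16.7 ± 0.530 against 27.1 ± 3.39 CPM; log2 fold change -0.70, edgeR adjusted p = 0.000546) and Rnf43 was lower (3.75 ± 0.0849 against 6.60 ± 1.41 CPM; log2 fold change -0.81, adjusted p = 0.00563). Lgr6 was higher in cKO, at 10.1 ± 1.25 against 5.51 ± 0.363 CPM (log2 fold change 0.88, adjusted p = 0.00101). On the authors' normalized table the Lgr6 difference was 0.33 (limma adjusted p = 0.296). Znrf3 and Rspo1 did not pass (adjusted p = 0.0858 and 0.274). Of 5 tested, 1 was higher and 2 were lower, where 42.8% of all genes were called.

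The difference between the medium effects was tested as an interaction, wild-type minus cKO. It was 3.80 for Lgr6 (SE 0.186, edgeR adjusted p = 4.97e-06; 3.21 on the authors' normalized table), whose direction turned between genotypes, and 1.33 for Lgr4 (SE 0.131, adjusted p = 0.000199), which rose in both. For Znrf3 it was 0.59 (adjusted p = 0.0434), a call lost with the mouse as a replicate block (0.0610), in DESeq2 (0.107) and without any 1 library other than wild-type FBS replicate 1 (0.0656 to 0.152). Rnf43 did not pass (-0.61, adjusted p = 0.109). For Rspo1, at 0 in 1 group, only the test is given (adjusted p = 0.00903; 0.0645 in limma with a pseudocount of 1). Of 5 tested, 4 were called, where 24.6% of all genes were.

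Per kilobase of exon, which allows genes to be set side by side, Lgr4 led the axis in every group: 4.61 CPM per kb in FBS and 31.4 in atRA+PKCi for wild-type, 2.84 in cKO FBS and 7.68 in cKO atRA+PKCi. Lgr6 followed at 7.32 in wild-type atRA+PKCi but lay at 0.804 in wild-type FBS, below Znrf3 (1.67) and Rnf43 (1.01).

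Among the other Wnt genes of the same libraries, 4 of 11 tested Wnt receptors rose and 1 fell in wild-type atRA+PKCi, where 53.9% of all genes were called. The list median was 0.62 against 0.03 over all genes on the log2 scale. Fzd8 (log2 fold change 1.87) and Fzd7 (1.74) rose most. Of 10 tested Wnt targets 3 rose and 2 fell there (median 0.01), and Ccnd1, a cyclin, rose by 0.91. The larger rises were in genes with a mean under 5 CPM, named after their values were seen: Notum by 3.63 (44 reads over the FBS libraries and 644 over the atRA+PKCi libraries, edgeR adjusted p = 1.76e-06) and Nkd2 by 3.13 (9 and 95 reads). Of 9 proteoglycans 3 rose and 5 fell (median -0.28), with Gpc2 at 1.29 and Sdc3 at -2.14. In cKO cells, where 43.0% of all genes were called, the medium raised 5 of 10 Wnt targets and lowered 0. The list median was 0.97 against 0.02 over all genes, with Axin2 at 1.85 (edgeR adjusted p = 1.55e-05). Axin2 lay at 5.52 ± 0.867 and 5.45 ± 0.00283 CPM in wild-type FBS and atRA+PKCi, and at 4.19 ± 0.0212 and 15.1 ± 1.05 CPM in cKO (SD, n = 2). In cKO cells, 5 of 11 Wnt receptors rose and 2 fell with the medium, and 3 of 9 proteoglycans rose and 3 fell.

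Against wild-type cells in atRA+PKCi, where 43.2% of all genes were called, cKO cells had 2 of 11 Wnt receptors higher and 5 lower. The list median was -0.38 against 0.00 over all genes, with Fzd8 at -1.46, Fzd7 at -1.38 and Fzd6 at -0.79 on the log2 scale. The largest change in this list was upward, in Fzd10, whose mean over all libraries was under 5 CPM and which was named after its values were seen: 10.6 CPM in cKO against 0.732 in wild-type (log2 fold change 3.84, edgeR adjusted p = 2.87e-06). Of the Wnt targets 5 were higher and 3 lower, and of the proteoglycans 5 higher and 2 lower, with Sdc4 at -1.36 and Gpc4 at 0.91. In FBS, where 42.8% of all genes were called, 2 Wnt receptors were higher and 5 lower. Of the targets 2 were higher and 4 lower, and of the proteoglycans 4 higher and 3 lower. In the interaction, where 24.6% of all genes were called, 3 Wnt receptors were above 0 and 0 below. Of the targets 3 were above and 3 below, and of the proteoglycans 0 above and 3 below.

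In the hashtagged cultures, adding Rspo to BMP2/4 cultures asked what R-spondin does to its own receptors and ligases. After filtering, 222 and 78 cells were kept from 449 and 208 barcodes: 77 and 33 hashtag doublets were dropped, and 150 and 97 singlets had too many mitochondrial UMIs. BMP2/4 cultures gave 113 and 13 cells, Rspo+BMP2/4 cultures 92 and 27, cultures with an added retinoic acid receptor inhibitor (Rspo+BMP2/4+RARi) 5 and 21, B-27 5 and 10, Rspo 5 and 6, and atRA+PKCi 2 and 1. FBS gave 0 cells. UMIs were summed per mouse and condition, and conditions with at least 5 cells in both mice entered 1 edgeR fit over 6265 genes.

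Rnf43 was the member that differed most with Rspo. It lay at 11.6 CPM in mouse 1 (43 UMIs) and 15.7 CPM in mouse 2 (8 UMIs) in BMP2/4 cultures, and at 60.7 CPM (158 UMIs) and 64.6 CPM (46 UMIs) in Rspo+BMP2/4 cultures. The groups did not overlap. The log2 fold change was 2.21 (SE 0.467), the fourth smallest p of all genes, but the adjusted p was 0.205, so it was not called. Znrf3 lay at 43.8 and 72.4 CPM without and 86.0 and 148 CPM with Rspo (log2 fold change 0.98, SE 0.527, edgeR adjusted p = 1).

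Lgr4 (146 and 209 against 154 and 246 CPM) overlapped between the conditions, with a log2 fold change of 0.12 (SE 0.581). Lgr6 (135 and 166 against 172 and 259 CPM) was higher in both sums with Rspo but was not called (log2 fold change 0.45, SE 0.444). Axin2, a standard readout of Wnt response, had 28 and 2 UMIs without Rspo (7.58 and 3.92 CPM) and 109 and 20 with it (41.9 and 28.1 CPM; log2 fold change 2.33, SE 0.489, edgeR adjusted p = 0.205). With a call set at a change of more than 1 in either direction on the log2 scale and at 0.01 for the adjusted p, 0 of 4 members tested were called, with 0.00% of all genes called and 44 of 6265 at an unadjusted p under 0.05 in edgeR. These 44 genes are a smaller share than the 0.05 expected where no gene differs. The fit also shared its estimate of the spread with conditions of few cells. The missing calls therefore do not show that Rspo had no effect. With no filter on low counts, Rnf43 passed (edgeR adjusted p = 0.00981), and DESeq2 called 0 of the members.

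**Figure D5:**
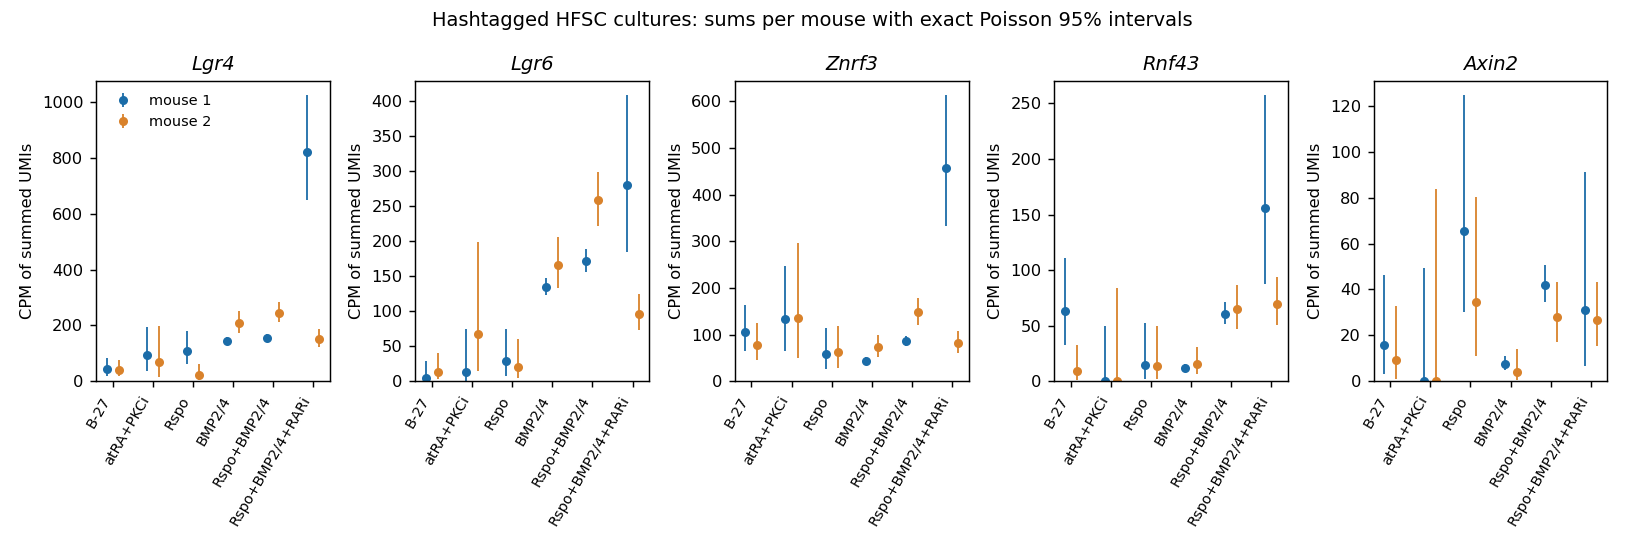
CPM of summed UMIs (vertical axes, each from 0) for Lgr4, Lgr6, Znrf3, Rnf43 and Axin2 in 6 culture conditions, for mouse 1 and mouse 2, with exact Poisson 95% intervals. Rnf43 stands at 11.6 and 15.7 CPM in BMP2/4 and at 60.7 and 64.6 CPM in Rspo+BMP2/4, and the wide bars mark conditions with few cells.

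Lgr5 was close to absent in these cultures. It had 15 UMIs in Rspo+BMP2/4 of mouse 1, all in 6 of 92 cells, and 2 or fewer elsewhere. Rspo1, Rspo2 and Rspo4 had 0 UMIs in all 6 conditions, which in the deepest sum, BMP2/4 of mouse 1, allows up to 0.812 CPM (3 counts). The same floor was 21.9 and 20.6 CPM in Rspo cultures and 68.0 CPM in atRA+PKCi of mouse 2, the shallowest sum. Lower levels of these genes or of Lgr5 could not be seen there. Rspo3 had 6 UMIs in 2 cells of BMP2/4 of mouse 1 and 0 elsewhere. In Rspo cultures without BMP2/4, Rnf43 lay at 14.6 and 13.8 CPM on 2 UMIs each and Axin2 at 65.7 and 34.4 CPM on 9 and 5 UMIs.

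Adding RARi to Rspo+BMP2/4 gave no call among the 4 members tested (0.00% of all genes, 232 at an unadjusted p under 0.05 in edgeR). The mice disagreed here: Lgr4 lay at 822 CPM in mouse 1 (5 cells) and 153 in mouse 2 (21 cells), against 154 and 246 without RARi. Znrf3 lay at 458 and 81.3 CPM, Rnf43 at 156 and 69.7 CPM and Lgr6 at 281 and 96.2 CPM. The log2 fold changes were 0.89 (SE 0.598), 0.75 (SE 0.541), 0.43 (SE 0.454) and -0.57 (SE 0.475), each with an edgeR adjusted p of 0.959.

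BMP2/4 cultures, which differ from B-27 cultures in atRA+PKCi as well as BMP2/4, had more Lgr6. It lay at 5.29 and 13.7 CPM in B-27, on 1 and 3 UMIs, and at 135 and 166 CPM in BMP2/4, with a log2 fold change of 4.02 (SE 0.694, edgeR adjusted p = 0.000562). Of 4 members 1 was called, where 5.71% of all genes were. The call was lost without the B-27 sum of mouse 1 (log2 fold change 3.48, adjusted p = 0.0294). Lgr4 lay at 42.3 and 41.0 CPM in B-27 and was higher in both BMP2/4 sums, but did not pass (log2 fold change 2.17, SE 0.700, adjusted p = 0.0537). It passed with no filter on low counts, with a looser mitochondrial limit and with a simpler hashtag rule (edgeR adjusted p = 0.00324 to 0.00968). Rnf43 (63.5 and 9.10 CPM in B-27; log2 fold change -1.28, adjusted p = 0.217) and Znrf3 (106 and 77.4 CPM; -0.59, adjusted p = 0.540) did not pass either. Among the other listed genes, 3 Wnt receptors, 2 Wnt targets and 3 proteoglycans were tested in these cultures, and 0 were called in any of the 3 comparisons.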

How the data were processed

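Per the labels, the authors made the RNA-seq table of estimated counts with Salmon 1.4.0, deposited beside a normalized table (unit signal), and the single cell UMI counts with Cell Ranger 7.0.1, which also counts intronic reads. The annotation positions used here are GENCODE M21 on GRCm38. Estimated counts were rounded and fitted with edgeR 4.0.16 (R 4.3.3; TMM, quasi-likelihood test, Benjamini-Hochberg adjustment) over all 8 libraries, without a block. Alternatives used DESeq2 1.42.0 and limma 3.58.1. Equal numbers in the titles were read as the same mouse in both media. The deviations of libraries paired in this way correlated at 0.112 in wild-type and -0.00219 in cKO.

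Skin cells with at least 500 genes, 1000 UMIs and under 10% mitochondrial UMIs were kept, predicted doublets (5.76% and 3.82% of cells) removed, and clusters made with scanpy 1.11.5 at resolution 0.8 from 3000 variable genes that excluded the members and Wnt lists. Hashtags were called with Seurat 5.3.0 (quantile 0.99), and doublets dropped. Scripts were tested on simulated data. Members and gene lists were chosen with earlier results of these data known. All 9 members are named, and from each list up to 4 called genes with a mean of at least 5 CPM and the largest change. The chromatin libraries of the series were not used here. Floors are 3 counts, and intervals and floors cover counting error only.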

Additional observations from a re-analysis of the deposited data

Results flagged for a closer look

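The change from FBS to atRA+PKCi differed between wild-type and labelled Rxra cKO cultures for 4 of the 5 members tested, by the interaction term of the edgeR fit. Over all genes, 24.6% were called in the same interaction. The wild-type change minus the cKO change was 3.80 on the log2 scale for Lgr6, 1.33 for Lgr4 and 0.59 for Znrf3, whose call was lost in DESeq2 and with the mouse as a replicate block. For Rspo1, with 0 reads in wild-type atRA+PKCi, the adjusted p of the interaction was 0.00903.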

How the results depend on the processing

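Over all alternatives, 460 values of single genes kept direction and call or moved by less than the spread between mice, 32 lost a call, 6 gained one, 10 levels in skin moved by more than that spread, and 7 turned direction. Counts were also compared, of called members and of members that kept their leading skin class or culture condition. Of these, 100 stayed within 1.5 times the main count, 4 were lower and 4 higher. Settings in which some members changed their leading skin class lay within that limit. The values that turned direction were not called in either setting. The log2 fold change of Lgr4 with Rspo in BMP2/4 cultures was -0.064 with mitochondrial UMIs under 20%, and ranged from -0.14 to 0.327 with 1 sum left out (below 0 without BMP2/4 of mouse 1 or Rspo+BMP2/4 of mouse 2). With 1 sum left out, the change with RARi ranged from -0.372 to 1.511 for Lgr4 and from -0.49 to 1.456 for Znrf3 (below 0 without RARi of mouse 1), and that of Rnf43 for BMP2/4 against B-27 from -2.015 to 0.546 (above 0 without B-27 of mouse 1). That of Rnf43 with the medium in wild-type ranged from -0.409 to 0.031 with 1 library left out (above 0 without wild-type FBS replicate 1). With calls set at 0.01 for the adjusted p and at a change of more than 1 on the log2 scale, 1 member was called for the medium in cKO and 0 for cKO against wild-type in FBS, and with limma (pseudocount 1) 2 were called in the interaction. That stricter threshold called 2960, 1858, 1761, 2081 and 1134 genes in the 5 RNA-seq comparisons, where the main one called 8599, 6861, 6840, 6895 and 3924. Leaving out 1 library gave as few as 4543 genes for the medium in cKO and 2392 for the interaction. For BMP2/4 against B-27, 2 members were called with a 70% hashtag rule, with mitochondrial UMIs under 20% and with no filter, and 0 to 1 when 1 sum was left out, and all genes called ranged over the alternatives from 61 (without the BMP2/4 sum of mouse 1) to 650 (no minimum fold change) against 358. With no filter, 1 member and 8 genes were called for Rspo+BMP2/4 against BMP2/4, and 0 members and 7 genes with RARi added.

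With the mouse as a replicate block, 8470, 6671 and 3615 genes were called for the medium in wild-type, in cKO and in the interaction. The block ended the calls of Rspo1 in cKO (adjusted p = 0.0869) and Znrf3 in the interaction (0.0610) and changed no other call of a member there. Without wild-type FBS replicate 2, Rnf43 was called in the interaction (-0.81, edgeR adjusted p = 0.0295) and Znrf3 for cKO against wild-type in FBS (-0.48, adjusted p = 0.00855). The cause was not tested. In skin, the class with the highest level stayed for the 4 R-spondins and Lgr5 under all 4 alternatives. Lgr6 and Znrf3 changed class with doublets kept, at resolution 1.2 and with the stricter cell filter. Rnf43 changed at resolution 1.2 and Lgr4 with the stricter filter. With doublets kept, Lgr6 was highest in dermal sheath or mural-like cells (104 CPM), a class of 2 clusters there. In the main setting that class was 1 cluster, with a mean Lgr6 level of 14.1 CPM. The unnamed cluster 28, with a mean of 170 CPM, scored best for the markers of that class in the main setting (0.954). Which cells formed the second cluster was not tested. Cultures with 1 to 13 cells a sum limit what can be seen there.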
